A study of Homo sapiens with 12 samples.

Results

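The genes that hold breast epithelial cells to the matrix and to each other were followed in T47D-MTVL cells after progestin treatment and CHD8 knockdown. The set was chosen by function, with earlier results of these data known. It has 39 listed genes in 4 families, the integrins, the tight junction genes, the cadherins with EPCAM, and the desmosome genes. A gene entered with its brightest probe set among those annotated with its symbol alone, by the mean of all 12 arrays, and 36 of the 39 genes had such a probe set, out of 18417 genes that have one on the array. These are 16 of 17 integrins, 9 of 11 tight junction genes, 4 of 4 cadherins with EPCAM and 7 of 7 desmosome genes. ITGA1 and OCLN are read by probe sets that they share with another gene, PELO and the pseudogene OCLNP1, and F11R was not analysed here. EPCAM alone had a second probe set of its own, which passed no test.

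T47D-MTVL is a line derived from the T47D human breast cancer line, with a stably integrated copy of the hormone-inducible MMTV promoter in front of a luciferase gene. The conditions, with 3 arrays each, were siCHD8 with R5020, siCHD8 with EtOH, siCt with R5020, and siCt with EtOH. siCHD8 is an siRNA against the chromatin remodeller CHD8 and siCt a control siRNA, R5020 is a synthetic progestin given at 10 nM for 6 h, and EtOH is its vehicle. All cells, controls included, carried the reporter, were transfected, and spent 48 h without serum in medium without phenol red before treatment. The labels call the arrays biological replicates and say that RNA was isolated in triplicate, without saying whether from separate transfections, so p-values measure the spread between these samples. In whole cultures, fewer cells of a kind and less RNA per cell cannot be told apart.

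Integrins are heterodimers of an alpha and a beta chain that bind collagen, laminin, fibronectin and other ligands outside the cell and the actin or keratin cytoskeleton inside it. Tight junctions seal the space between epithelial cells with strands of claudins that the ZO scaffold proteins anchor to actin. Classical cadherins join neighbouring cells through catenins at adherens junctions, and desmosomal cadherins join them to keratin filaments through plakoglobin, plakophilins and desmoplakin. In the breast, luminal cells carry E-cadherin and claudins, whereas the laminin-binding integrins and P-cadherin are best known from the basal layer.

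The promoters of 6 of the 8 members that passed the hormone test with both siRNAs are shown because each has a single start site in the RefSeq promoter table, and because their genes went in different directions. Of the 36 members, 24 were matched to that table by symbol. Each line gives the 250 bases upstream of the start on GRCh38.p14, in the direction of transcription. They lie at chr3:190322447-190322696 on the minus strand for CLDN1, chr7:73770271-73770520 on the minus strand for CLDN3, chr7:90403211-90403460 on the plus strand for CLDN12, chr5:52989102-52989351 on the plus strand for ITGA2, chr12:54419267-54419516 on the minus strand for ITGA5 and chr7:20330650-20330899 on the plus strand for ITGB8. Capitals mark matches, on either strand, to the progesterone receptor core TGTTCT or its variant TGTCCT, the GC box GGGCGG, the AP-1 site TGANTCA, or the E-box CAGGTG of the SNAIL and ZEB repressors, none of which overlapped another.
CLDN1: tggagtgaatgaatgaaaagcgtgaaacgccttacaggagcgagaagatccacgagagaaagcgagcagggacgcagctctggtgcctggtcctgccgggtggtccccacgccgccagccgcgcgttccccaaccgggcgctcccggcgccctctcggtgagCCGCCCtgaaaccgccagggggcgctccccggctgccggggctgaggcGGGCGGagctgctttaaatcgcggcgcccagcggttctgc
CLDN3: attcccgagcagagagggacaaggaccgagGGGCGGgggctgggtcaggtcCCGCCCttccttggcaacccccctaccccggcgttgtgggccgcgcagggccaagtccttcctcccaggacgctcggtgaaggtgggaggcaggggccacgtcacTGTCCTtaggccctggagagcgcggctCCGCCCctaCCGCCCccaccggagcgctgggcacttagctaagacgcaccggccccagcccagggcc
CLDN12: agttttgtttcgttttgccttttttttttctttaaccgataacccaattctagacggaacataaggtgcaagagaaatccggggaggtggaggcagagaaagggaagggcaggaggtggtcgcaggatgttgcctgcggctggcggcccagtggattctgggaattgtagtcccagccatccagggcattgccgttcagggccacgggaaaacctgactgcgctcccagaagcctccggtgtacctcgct
ITGA2: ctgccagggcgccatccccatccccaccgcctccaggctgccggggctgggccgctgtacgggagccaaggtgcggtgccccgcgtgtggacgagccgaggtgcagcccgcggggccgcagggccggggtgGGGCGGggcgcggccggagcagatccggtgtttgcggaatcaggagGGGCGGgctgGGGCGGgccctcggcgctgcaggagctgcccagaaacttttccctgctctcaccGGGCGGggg
ITGA5: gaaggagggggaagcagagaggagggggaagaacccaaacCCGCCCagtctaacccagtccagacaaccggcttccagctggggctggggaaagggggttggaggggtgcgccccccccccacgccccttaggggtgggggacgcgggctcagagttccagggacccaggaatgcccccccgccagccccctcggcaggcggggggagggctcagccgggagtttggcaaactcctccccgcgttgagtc
ITGB8: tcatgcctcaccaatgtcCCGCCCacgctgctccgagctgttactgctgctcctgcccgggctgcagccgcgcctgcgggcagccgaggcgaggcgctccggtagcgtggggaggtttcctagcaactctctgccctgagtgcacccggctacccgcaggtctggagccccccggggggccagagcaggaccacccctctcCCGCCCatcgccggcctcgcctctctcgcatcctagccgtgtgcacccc

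CLDN1, CLDN3, ITGA2 and ITGA5, which fell with the hormone, had 2, 4, 4 and 1 GC boxes. ITGB8 rose and had 2 GC boxes, and CLDN12 rose and had no match to any of the 5 motifs in these bases. The only match to TGTTCT or TGTCCT among the printed promoters was the TGTCCT of CLDN3, at -94 to -89 from the start. The study gives the receptor's consensus as TGTYCY (Y is C or T), and its forms that end in C were not searched here. Over all 37 windows of the 24 matched members, TGTTCT was found in 4 (10.8%, against 12.4% of all 35116 windows), TGTCCT in 3 (8.11%, against 13.4%), GGGCGG in 23 (62.2%, against 42.6%), TGANTCA in 2 (5.41%, against 6.57%) and CAGGTG in 11 (29.7%, against 17.5%). A match is a run of letters and not a measured binding site.

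The siRNA target was read at a lower level in siCHD8 cells. CHD8 had log2 intensities of 4.77, 4.62 and 4.81 in siCHD8 cells with R5020 and 5.42, 5.11 and 5.04 with EtOH, against 5.52, 5.24 and 5.29 in siCt cells with R5020 and 5.70, 5.71 and 5.91 with EtOH. The siCHD8 arrays lay below the siCt arrays of the same treatment, by 0.62 with R5020 (adjusted p = 0.0627) and 0.58 with EtOH (adjusted p = 0.0711), which did not pass the test. The study reports lower CHD8 with this siRNA by western blotting and RT-qPCR. CHD8 was also lower with R5020 than with EtOH, by 0.46 in siCHD8 cells (adjusted p = 0.0258) and 0.42 in siCt cells (adjusted p = 0.0349), and both changes passed. Array medians ran from 4.52 to 4.62 and replicates correlated at 0.989 to 0.996 across probe sets. The EtOH arrays scattered more around their condition mean (0.155 to 0.202 as root mean square on the log2 scale) than the R5020 arrays (0.125 to 0.141), with siCt EtOH array 3 and siCHD8 EtOH array 1 the furthest out.
Of 10 luminal markers, 9 lay above the upper quartile of all probe sets, and TFF1, an oestrogen-induced gene, was low at 3.67. The blood and endothelial markers were all under the median of the tested probe sets (0 of 9 above it), as were all but 1 of 8 fibroblast markers and all but 2 of 5 basal markers. With R5020, 5 of the 10 luminal markers fell with each siRNA (ESR1, PGR, GATA3, FOXA1 and KRT18), and the mean luminal level per array was 8.75 to 8.80 with R5020 against 9.19 to 9.29 with EtOH in siCHD8 cells, and 8.81 to 8.89 against 9.34 to 9.46 in siCt cells. Among the markers of other cells, 2 fell with R5020, KRT14 and COL1A1, both called in siCt cells alone. In siCt cells the mean level per array of the basal list was 4.16 to 4.27 with R5020 against 4.35 to 4.57 with EtOH, that of the fibroblast list 2.81 to 2.90 against 2.96 to 3.11, and that of the blood and endothelial list 2.45 to 2.58 against 2.61 to 2.67. The part of these shifts in the adhesion genes' results was not tested.

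R5020 lowered more adhesion and junction genes than it raised. In siCHD8 cells 10 of the 36 members passed the test (limma, adjusted p under 0.05 over all 21214 probe sets), 2 higher and 8 lower, which is 27.8%, against 11.5% of all tested probe sets (6.04% higher and 5.43% lower). In siCt cells 12 passed, 3 higher and 9 lower, which is 33.3%, against 14.1% (8.1% higher and 6% lower). Members and related lists were chosen with earlier results of these data known, so their shares beside those of all probe sets are descriptive. With a fold over 1.5 and an adjusted p under 0.01, 6 of 36 members passed in siCHD8 cells, against 1189 of all 21214 probe sets (5.6%). In siCt cells 5 of 36 members passed these limits, against 1390 of 21214 (6.55%). Of the 36 members, 26 had a mean intensity above the median of all tested probe sets, 4.59 on the log2 scale. Among those 26, 9 passed in siCHD8 cells (34.6%, against 18.7% of all probe sets at or above the median) and 10 in siCt cells (38.5%, against 22.3%). The median log2 change of the members was -0.12 in siCHD8 cells and -0.11 in siCt cells, beside -0.02 and -0.05 for all tested probe sets. All 3 R5020 arrays lay below all 3 EtOH arrays for 12 members in siCHD8 cells and 15 in siCt cells, and above them for 5 in each, where 14.2% and 18.7% of all probe sets lay wholly below and 13% and 15.3% wholly above.

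**Figure D1:**
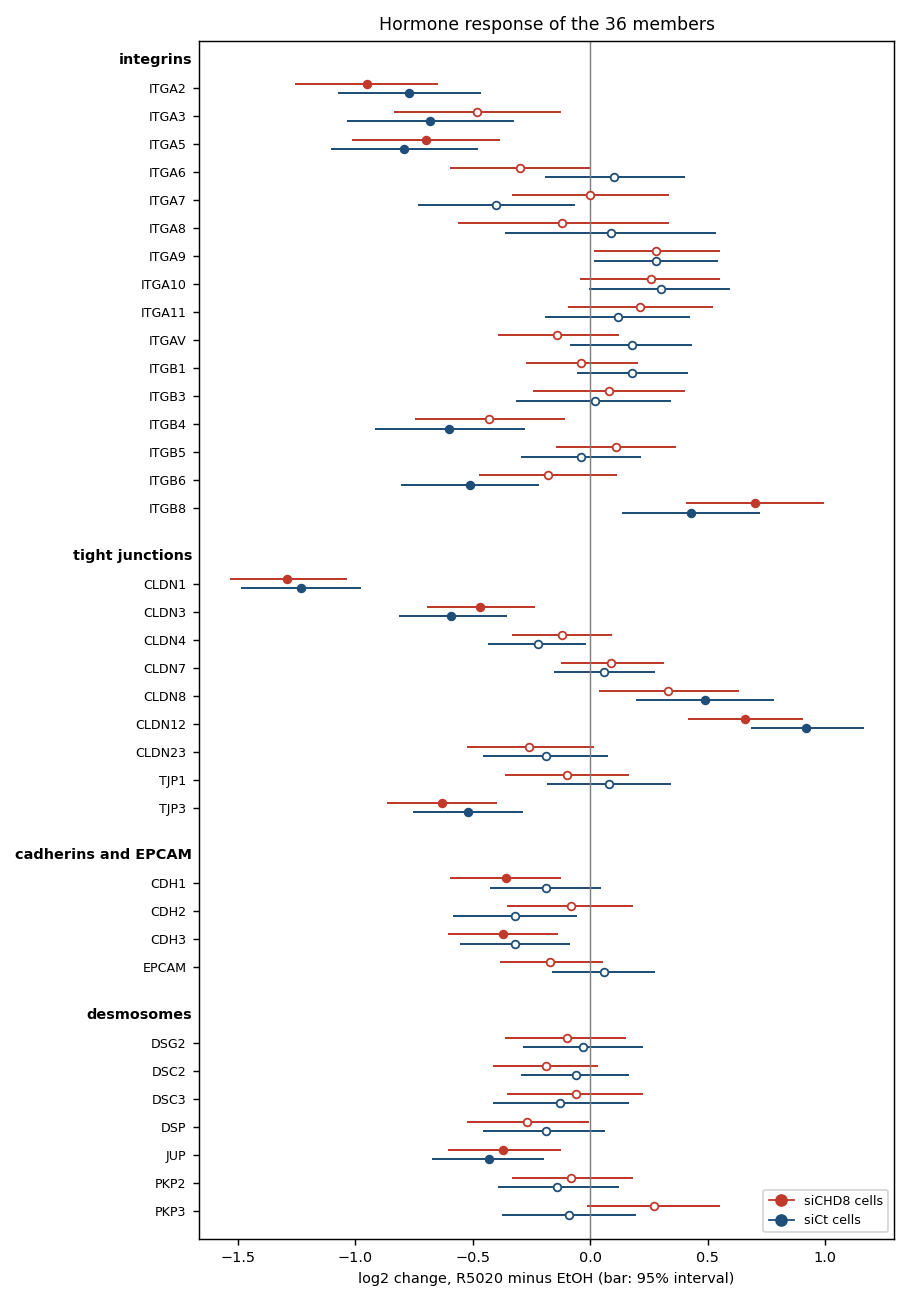
Log2 change with R5020 (R5020 minus EtOH) of the 36 members with its 95% interval, siCHD8 cells in red above siCt cells in blue for each gene, with filled points for an adjusted p under 0.05. CLDN1 lies furthest left with both siRNAs (-1.29 and -1.23), CLDN12 in siCt cells lies furthest right (0.92), and most desmosome genes lie near 0.

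The tight junction genes held the deepest fall of the members with either siRNA, that of CLDN1, and the highest rise in siCt cells, that of CLDN12. Of the 9 measured, 4 passed in siCHD8 cells (1 higher, 3 lower, 44.4%, against 11.5% of all probe sets) and 5 in siCt cells (2 higher, 3 lower, 55.6%, against 14.1%). All 9 probe sets were above the median intensity, and of all probe sets at or above it 18.7% passed in siCHD8 cells and 22.3% in siCt cells. CLDN1, which encodes a claudin that tightens the epithelial barrier, had log2 intensities of 9.74, 9.93 and 9.89 in siCHD8 cells with R5020 and 11.21, 11.12 and 11.10 with EtOH, against 9.88, 9.82 and 9.70 in siCt cells with R5020 and 11.03, 11.23 and 10.83 with EtOH. The R5020 arrays were all below the EtOH arrays with more than a log2 unit between the group means. CLDN1 fell by 1.29 ± 0.12 (SE) on the log2 scale in siCHD8 cells, 2.44-fold lower (adjusted p = 1.86e-06), and by 1.23 ± 0.12 in siCt cells, 2.34-fold lower (adjusted p = 2.69e-06).
CLDN3, another barrier-forming claudin, had 10.18, 10.15 and 10.33 with R5020 and 10.73, 10.78 and 10.55 with EtOH in siCHD8 cells, and 10.28, 10.20 and 10.21 with R5020 and 10.84, 10.90 and 10.71 with EtOH in siCt cells. Its groups did not overlap, and it fell by 0.47 ± 0.11 (adjusted p = 0.00773) in siCHD8 cells and by 0.59 ± 0.11 (adjusted p = 0.00122) in siCt cells. TJP3, the gene of the ZO scaffold protein ZO-3, stood at 6.78, 6.76 and 6.81 with R5020 and 7.41, 7.58 and 7.25 with EtOH in siCHD8 cells, and at 6.95, 6.97 and 6.88 with R5020 and 7.43, 7.38 and 7.54 with EtOH in siCt cells. Every R5020 array was below every EtOH array, and TJP3 fell by 0.63 ± 0.11 (adjusted p = 0.000846) in siCHD8 cells and by 0.52 ± 0.11 (adjusted p = 0.00329) in siCt cells.

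CLDN12 went the other way. It encodes a claudin that lacks the tail by which most claudins bind ZO proteins, and its log2 intensities were 7.99, 7.93 and 8.02 with R5020 and 7.39, 7.19 and 7.39 with EtOH in siCHD8 cells, and 7.99, 7.97 and 7.92 with R5020 and 7.11, 7.18 and 6.83 with EtOH in siCt cells. All R5020 arrays lay between 7.92 and 8.02, above every EtOH array. CLDN12 rose 1.58-fold in siCHD8 cells (0.66 ± 0.11, adjusted p = 0.000845) and 1.90-fold in siCt cells (0.92 ± 0.11, adjusted p = 3.2e-05).
CLDN8 had 5.19, 5.02 and 5.23 with R5020 and 4.93, 4.55 and 4.96 with EtOH in siCHD8 cells, and 5.47, 5.34 and 5.53 with R5020 and 5.12, 5.04 and 4.72 with EtOH in siCt cells. This claudin gene rose by 0.49 ± 0.14 in siCt cells (adjusted p = 0.0265), where siCt EtOH array 3 was the lowest. Its change in siCHD8 cells was 0.33 ± 0.14 (adjusted p = 0.152). The siCt call was lost without siCt EtOH array 3 (adjusted p = 0.11), siCt R5020 array 1 (adjusted p = 0.0819) or siCt R5020 array 3 (adjusted p = 0.102).
The other tight junction members did not pass. CLDN4 changed by -0.12 in siCHD8 cells and -0.22 in siCt cells, CLDN7 by 0.09 and 0.06, CLDN23 by -0.26 and -0.19, and TJP1, the gene of the main ZO scaffold, by -0.10 and 0.08. The probe set shared by OCLN and OCLNP1 read 7.34, 7.48 and 7.35 with R5020 and 7.61, 7.41 and 7.43 with EtOH in siCHD8 cells, and 7.38, 7.30 and 7.55 with R5020 and 7.03, 7.19 and 6.61 with EtOH in siCt cells. It rose by 0.46 ± 0.14 in siCt cells (adjusted p = 0.0366) and changed by -0.09 ± 0.14 in siCHD8 cells (adjusted p = 0.789), with the siCt EtOH array 3 again lowest. The difference of these responses was -0.55 (unadjusted p = 0.0129, adjusted p = 0.49), and the gene and its pseudogene cannot be separated on this probe set.

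**Figure D2:**
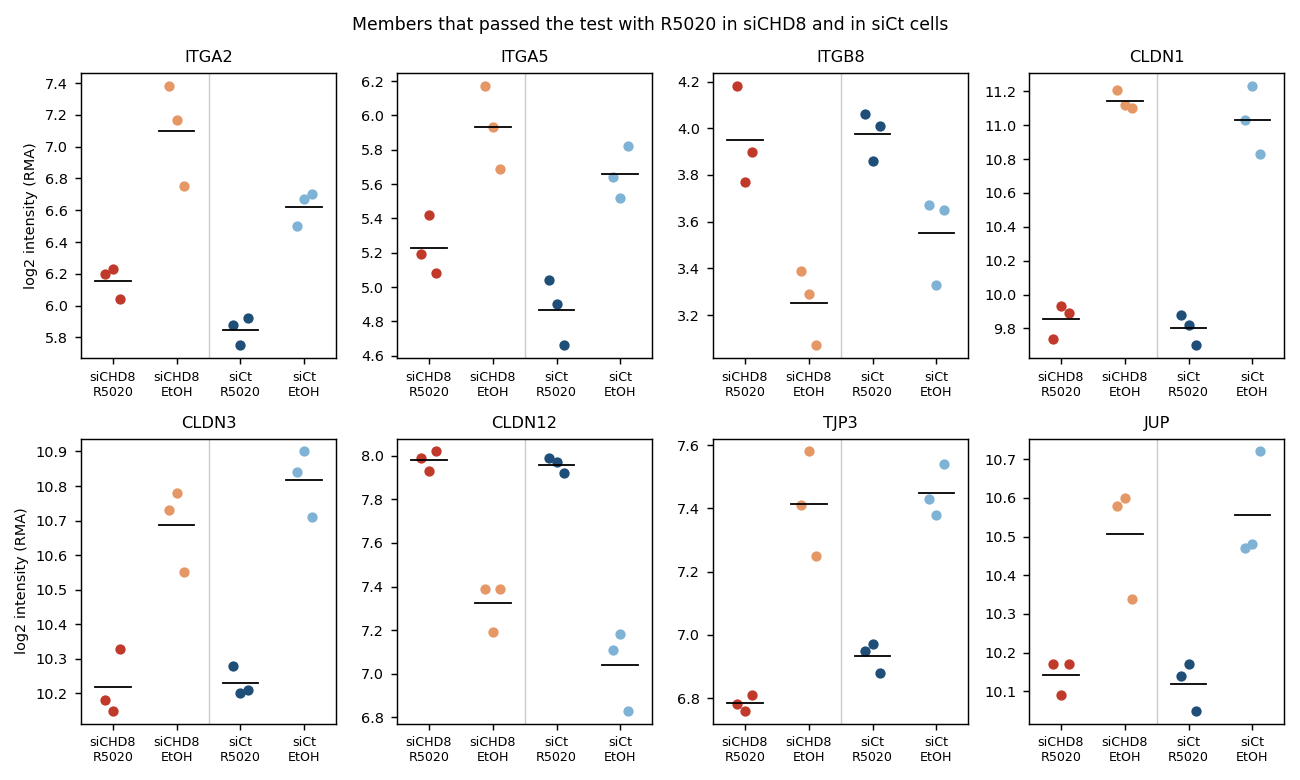
Log2 intensity (vertical axis, a separate range in each panel) of the 8 members that passed the test with R5020 in siCHD8 and in siCt cells, 1 point per array and a bar for the mean of 3, with siCHD8 conditions left of siCt conditions and R5020 left of EtOH. The R5020 and EtOH points of a given siRNA do not overlap in any panel.

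Among the integrins, the alpha chains ITGA2 and ITGA5 of a collagen and a fibronectin receptor fell with either siRNA, and ITGB8, a beta chain that pairs with ITGAV, rose. In siCHD8 cells 3 of 16 passed (1 higher, 2 lower; 18.8%, against 11.5% of all probe sets) and in siCt cells 6 of 16 (1 higher, 5 lower; 37.5%, against 14.1%). Their median change was -0.08 in siCHD8 cells and 0.05 in siCt cells. Of the 16, 8 probe sets lay above the median level, and the others, which include ITGB6 and ITGB8, were dim.
ITGA2, the alpha chain of a collagen receptor, had log2 intensities of 6.20, 6.23 and 6.04 with R5020 and 7.38, 7.17 and 6.75 with EtOH in siCHD8 cells, and 5.88, 5.75 and 5.92 with R5020 and 6.50, 6.67 and 6.70 with EtOH in siCt cells. It was the integrin with the deepest fall in siCHD8 cells, 1.93-fold (-0.95 ± 0.14, adjusted p = 0.000274), and fell 1.71-fold in siCt cells (-0.77 ± 0.14, adjusted p = 0.00135). ITGA5, the alpha chain of the classical fibronectin receptor, had 5.19, 5.42 and 5.08 with R5020 and 6.17, 5.93 and 5.69 with EtOH in siCHD8 cells, and 5.04, 4.90 and 4.66 with R5020 and 5.64, 5.52 and 5.82 with EtOH in siCt cells. No R5020 array reached an EtOH array, and ITGA5 fell 1.62-fold in siCHD8 cells (-0.70 ± 0.15, adjusted p = 0.00446) and 1.73-fold in siCt cells (-0.79 ± 0.15, adjusted p = 0.00142).
ITGB8, which pairs with ITGAV and binds latent TGF-beta, had 4.18, 3.77 and 3.90 with R5020 and 3.39, 3.29 and 3.07 with EtOH in siCHD8 cells, and 4.06, 3.86 and 4.01 with R5020 and 3.67, 3.33 and 3.65 with EtOH in siCt cells. It rose by 0.70 ± 0.14 in siCHD8 cells (adjusted p = 0.00273) and by 0.43 ± 0.14 in siCt cells (adjusted p = 0.0487). The siCt call was lost when any of 9 single arrays was left out, each siCt array, siCHD8 EtOH array 2, or siCHD8 R5020 array 2 or 3 (adjusted p up to 0.157).

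The laminin receptor chains ITGA3 and ITGB4 fell in siCt cells and missed the threshold in siCHD8 cells. ITGA3, the alpha chain of a laminin receptor, had 6.26, 6.17 and 6.24 with R5020 and 6.82, 6.83 and 6.46 with EtOH in siCHD8 cells, and 6.11, 6.01 and 5.89 with R5020 and 6.43, 6.50 and 7.13 with EtOH in siCt cells. ITGB4, the beta chain of the hemidesmosome, had 6.99, 6.87 and 6.97 with R5020 and 7.46, 7.47 and 7.20 with EtOH in siCHD8 cells, and 7.08, 7.15 and 6.88 with R5020 and 7.46, 7.44 and 8.01 with EtOH in siCt cells. For both genes the groups were apart with either siRNA, and siCt EtOH array 3 stood well above the other arrays.
ITGA3 changed by -0.48 ± 0.16 in siCHD8 cells (adjusted p = 0.0784) and fell by 0.68 ± 0.16 in siCt cells (adjusted p = 0.0108). ITGB4 changed by -0.43 ± 0.15 in siCHD8 cells (adjusted p = 0.08) and fell by 0.60 ± 0.15 in siCt cells (adjusted p = 0.0124). Without siCt EtOH array 3, the changes in siCt cells were smaller, -0.46 for ITGA3 and -0.41 for ITGB4. The difference between the responses was 0.20 for ITGA3 and 0.17 for ITGB4, and neither difference passed the test. Both siCt calls were lost without siCt R5020 array 3 (adjusted p = 0.0524 for ITGA3 and 0.0666 for ITGB4), and in siCHD8 cells both passed without siCt EtOH array 3 (adjusted p = 0.0129 and 0.0183), as did ITGA3 without siCHD8 EtOH array 3 (adjusted p = 0.0412).
ITGB6, another partner of ITGAV, had 3.11, 3.15 and 3.09 with R5020 and 3.51, 3.06 and 3.34 with EtOH in siCHD8 cells, and 2.68, 2.97 and 2.72 with R5020 and 3.13, 3.52 and 3.25 with EtOH in siCt cells. The groups overlapped in siCHD8 cells (-0.18 ± 0.14, adjusted p = 0.498) and not in siCt cells, where ITGB6 fell by 0.51 ± 0.14 (adjusted p = 0.0205). That call was lost without siCt EtOH array 2 (adjusted p = 0.0801), siCt R5020 array 1 (adjusted p = 0.0874) or siCt R5020 array 3 (adjusted p = 0.0806).

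The chains that these integrins pair with did not pass with R5020. ITGB1, the common partner of ITGA2, ITGA3 and ITGA5, changed by -0.04 ± 0.11 in siCHD8 cells (95% interval -0.27 to 0.20) and by 0.18 ± 0.11 in siCt cells (-0.05 to 0.41). ITGAV, the partner of ITGB6 and ITGB8, changed by -0.14 ± 0.12 in siCHD8 cells and 0.18 ± 0.12 in siCt cells. ITGA6, the partner of ITGB4, changed by -0.30 ± 0.14 in siCHD8 cells and 0.10 ± 0.14 in siCt cells. The remaining integrins, ITGA7, ITGA8, ITGA9, ITGA10, ITGA11, ITGB3 and ITGB5, lay between -0.40 (ITGA7 in siCt cells) and 0.30 (ITGA10 in siCt cells), and none of them passed. ITGA9 passed in siCHD8 cells without siCHD8 EtOH array 2 (0.43, adjusted p = 0.0243). The probe set shared by PELO and ITGA1 changed by 0.10 in siCHD8 cells and 0.19 in siCt cells and did not pass.

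E-cadherin and P-cadherin fell in siCHD8 cells (2 of 4 genes, against 11.5% of all probe sets), and 0 of the 4 passed in siCt cells, where 2 had an unadjusted p under 0.05. CDH1, the E-cadherin of luminal cells, had log2 intensities of 10.09, 10.10 and 10.08 with R5020 and 10.57, 10.50 and 10.28 with EtOH in siCHD8 cells, and 9.93, 10.01 and 9.89 with R5020 and 10.21, 10.18 and 10.01 with EtOH in siCt cells. It fell by 0.36 ± 0.11 in siCHD8 cells (adjusted p = 0.0387) and changed by -0.19 ± 0.11 in siCt cells (adjusted p = 0.261), where all R5020 arrays were still at or below the lowest EtOH array.
CDH3, the P-cadherin gene, had 7.21, 7.16 and 7.08 with R5020 and 7.56, 7.62 and 7.37 with EtOH in siCHD8 cells, and 7.62, 7.51 and 7.55 with R5020 and 7.83, 7.80 and 8.02 with EtOH in siCt cells. The R5020 arrays lay below the EtOH arrays with both siRNAs. CDH3 fell by 0.37 ± 0.11 in siCHD8 cells (adjusted p = 0.0354) and changed by -0.32 ± 0.11 in siCt cells (adjusted p = 0.0598).
The difference between the responses was -0.17 for CDH1 (95% interval -0.49 to 0.15) and -0.05 for CDH3 (-0.37 to 0.27) and neither difference passed the test. The siCHD8 call of CDH1 was lost when any of 8 single arrays was left out (each siCHD8 R5020 and siCt R5020 array, or siCHD8 EtOH array 1 or 2; adjusted p up to 0.115) and that of CDH3 with any of 7 (each siCHD8 R5020 array, siCHD8 EtOH array 1 or 2, or siCt R5020 array 1 or 2; up to 0.138), while CDH3 passed in siCt cells without siCHD8 EtOH array 3 (adjusted p = 0.045), with quantile normalization (-0.44, adjusted p = 0.0093), with dim probe sets left out (adjusted p = 0.0256) and with trend and robust variance (adjusted p = 0.0331).
CDH2, the N-cadherin gene, was dim and changed by -0.08 in siCHD8 cells and -0.32 in siCt cells (adjusted p = 0.102), passing without siCt R5020 array 3 (-0.44, adjusted p = 0.037). EPCAM, the epithelial adhesion molecule that binds like molecules on neighbouring cells, changed by -0.17 in siCHD8 cells and 0.06 in siCt cells.

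Of the 7 desmosome genes only JUP passed with R5020, with either siRNA (14.3%, against 11.5% of all probe sets in siCHD8 cells and 14.1% in siCt cells). JUP encodes plakoglobin, which serves in desmosomes and in adherens junctions, and it read 10.17, 10.09 and 10.17 with R5020 and 10.58, 10.60 and 10.34 with EtOH in siCHD8 cells, and 10.14, 10.17 and 10.05 with R5020 and 10.47, 10.48 and 10.72 with EtOH in siCt cells. The groups did not overlap with either siRNA, and JUP fell by 0.37 ± 0.11 in siCHD8 cells (adjusted p = 0.0421) and by 0.43 ± 0.11 in siCt cells (adjusted p = 0.0148). The siCHD8 call was lost when any of 9 single arrays was left out (each R5020 array of either siRNA, siCHD8 EtOH array 1 or 2, or siCt EtOH array 1; adjusted p up to 0.143), and the siCt call without siCt EtOH array 3 (adjusted p = 0.0573) or siCt R5020 array 3 (adjusted p = 0.0651).
The desmosomal cadherins DSG2, DSC2 and DSC3 changed by -0.10, -0.19 and -0.06 in siCHD8 cells and by -0.03, -0.06 and -0.13 in siCt cells. DSP, the gene of the keratin anchor desmoplakin, changed by -0.27 ± 0.12 in siCHD8 cells (adjusted p = 0.196) and -0.19 ± 0.12 in siCt cells (adjusted p = 0.313), and passed in siCHD8 cells without siCHD8 EtOH array 3 (-0.40, adjusted p = 0.0301). The plakophilin gene PKP2 changed by -0.08 in siCHD8 cells and -0.14 in siCt cells, and PKP3 by 0.27 and -0.09. DSC3 was dim, at a mean log2 intensity of 1.41.

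Most members went the same way with R5020 under either siRNA, in comparisons that share no arrays. ITGA2, ITGA5, ITGB8, CLDN1, CLDN3, CLDN12, TJP3 and JUP passed with both siRNAs in the same direction, 2 passed in siCHD8 cells alone, 4 in siCt cells alone, 22 in neither, and 0 in opposite directions. Across the 36 members the changes in siCHD8 cells and in siCt cells had a Pearson r of 0.89 and a Spearman rho of 0.80, beside 0.74 and 0.46 over all 21214 tested probe sets; members are not independent replicates. The sign was shared by 28 members (77.8%, against 64.2% of all probe sets), and the change was smaller in siCHD8 cells for 16 of 36, against 12097 of all 21214 probe sets.
No member passed when the 2 hormone responses were set against each other (siCHD8 minus siCt), nor did any of the 21214 probe sets (0%), and 0 of 36 members had an unadjusted p under 0.05, against 9.56% of all probe sets. The intervals were wide, with a median SE of 0.19 over all probe sets. For CLDN1 the difference was -0.06 (95% interval -0.41 to 0.29), for CLDN12 -0.26 (-0.60 to 0.07), for ITGA2 -0.17 (-0.60 to 0.25), for ITGB8 0.27 (-0.14 to 0.68) and for ITGB6 0.32 (-0.09 to 0.73). ITGA6 had the smallest unadjusted p (0.0579), at a difference of -0.40 (-0.82 to 0.02). These intervals leave room for differences as large as many of the hormone changes themselves.

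Knockdown of CHD8 moved no member past the test, and these comparisons use the same arrays as the hormone comparisons. With R5020, 0 of 36 members passed for siCHD8 against siCt, against 0.189% of all tested probe sets, with a lowest adjusted p of 0.122. With EtOH, 0 of 36 passed, against 0.292%, with a lowest adjusted p of 0.145. At an unadjusted p under 0.05 there were 5 members with R5020 (13.9%, against 13.9% of all probe sets) and 8 with EtOH (22.2%, against 12.1%). With R5020 the siCHD8 arrays lay wholly above the siCt arrays for 6 members and wholly below for 3, against 12.3% and 15.3% of all probe sets. With EtOH they lay wholly above for 5 and wholly below for 3, against 5.63% and 8.06%.
CDH3 had the smallest p of the members with R5020, with 7.21, 7.16 and 7.08 in siCHD8 cells against 7.62, 7.51 and 7.55 in siCt cells, a difference of -0.41 ± 0.11. With EtOH its difference was -0.36 ± 0.11 (adjusted p = 0.164), and the siCHD8 arrays lay below the siCt arrays in both treatments. ITGAV had 7.54, 7.32 and 7.41 in siCHD8 cells with EtOH against 6.96, 7.16 and 6.84 in siCt cells with EtOH, a difference of 0.44 ± 0.12 (adjusted p = 0.145). With R5020 the ITGAV arrays overlapped, at a difference of 0.12 ± 0.12.
ITGA2 lay higher in siCHD8 cells on all arrays of both treatments, by 0.48 ± 0.14 with EtOH (adjusted p = 0.167) and 0.30 ± 0.14 with R5020 (adjusted p = 0.352). It passed with EtOH when siCHD8 EtOH array 3 was left out (0.65, adjusted p = 0.0467). CDH1 differed by 0.32 ± 0.11 with EtOH (adjusted p = 0.232), EPCAM by 0.26 ± 0.10 and CLDN12 by 0.28 ± 0.11, with siCHD8 arrays above siCt arrays in each, and with R5020 these differences were 0.15, 0.03 and 0.02. The desmosome genes differed by -0.22 to 0.15 with EtOH and by -0.06 to 0.14 with R5020. Of the basal markers ACTA2 was lower in siCHD8 than in siCt cells with EtOH (-0.74, adjusted p = 0.0203), and the mean level of that list was 4.14 to 4.29 against 4.35 to 4.57; its part in these differences was not tested.

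**Figure D3:**
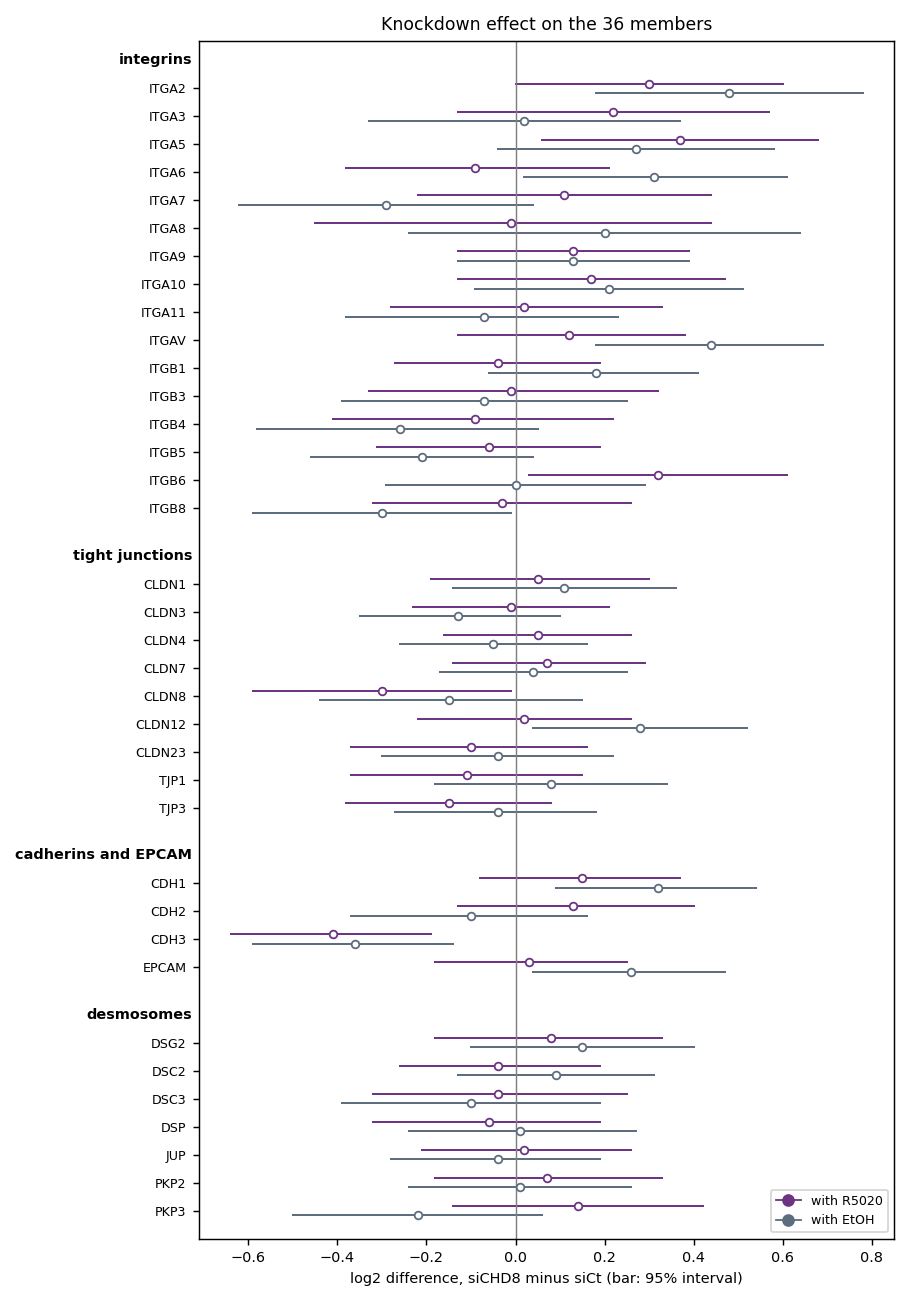
Log2 difference between siCHD8 and siCt cells (siCHD8 minus siCt) of the 36 members with its 95% interval, with R5020 above and with EtOH below for each gene; open points mark an adjusted p of 0.05 or more. All points are open, CDH3 lies furthest left (-0.41 and -0.36), and ITGA2 (0.48) and ITGAV (0.44) lie furthest right with EtOH.

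Genes for the proteins around the integrins changed with R5020 in both directions. A gene of the related lists given with 1 siRNA alone was not called with the other. No difference between their hormone responses passed the test. Of 28 measured genes for integrin adaptors and signalling, 7 rose and 2 fell in siCHD8 cells (32.1% called, against 11.5% of all probe sets) and 8 rose and 2 fell in siCt cells (35.7%, against 14.1%). VCL, the gene of the actin linker vinculin, rose 2.91-fold in siCHD8 cells and 3.01-fold in siCt cells. TNS3, a tensin gene, rose 3.06-fold and 2.68-fold, whereas TNS4, the gene of a tensin without the actin-binding part, fell 2.57-fold and 2.51-fold. TNS2 fell 1.72-fold in siCHD8 cells and 2.39-fold in siCt cells, and BCAR1, the gene of a focal adhesion docking protein, rose 1.96-fold and 1.82-fold.
Of 27 measured laminins, collagens and other integrin ligands, 0 rose and 2 fell in siCHD8 cells (7.41% called, below the 11.5% of all probe sets), and 1 rose and 7 fell in siCt cells (29.6%, against 14.1%). FN1, the fibronectin gene, fell 1.68-fold in siCHD8 cells and 1.57-fold in siCt cells, and NPNT, the nephronectin gene, fell 1.57-fold and 1.30-fold. LAMA5, a laminin alpha chain gene, changed by -0.38 on the log2 scale in siCHD8 cells (adjusted p = 0.101) and fell 1.79-fold in siCt cells. AGRN, the agrin gene, fell by 0.58 on the log2 scale there, and CCN1, a matricellular gene, rose 1.52-fold there. NPNT was also 1.59-fold higher in siCHD8 than in siCt cells with EtOH (adjusted p = 0.0173), the only called knockdown difference of this list.
The list of hemidesmosome partners joins the plakins DST and PLEC with tetraspanins, CD9, CD63, CD81, CD82 and CD151, which are not confined to hemidesmosomes. Of these 7 measured genes, 2 rose and 1 fell in siCHD8 cells, and 1 rose and 2 fell in siCt cells (42.9% called in each, against 11.5% and 14.1%). DST, the gene of a plakin that ties ITGB4 to keratin, fell 2.97-fold in siCHD8 cells and 2.67-fold in siCt cells, and PLEC, the plectin gene, fell 1.52-fold in siCt cells. CD9, a tetraspanin gene, rose by 0.49 in siCHD8 cells and 1.20 in siCt cells on the log2 scale and was 0.68 higher in siCHD8 than in siCt cells with EtOH (adjusted p = 0.0498). CD151, the gene of a tetraspanin that binds laminin receptors, rose by 0.66 in siCHD8 cells and changed by 0.22 in siCt cells (adjusted p = 0.268).

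Cell-to-cell junction genes outside the 36 members also went both ways. Of 34 other tight junction and polarity genes, 3 rose and 9 fell in siCHD8 cells (35.3% called, against 11.5% of all probe sets), and 3 rose and 8 fell in siCt cells (32.4%, against 14.1%). PATJ, a polarity scaffold gene, fell 2.76-fold in siCHD8 cells and 2.27-fold in siCt cells, and CLDN16, a claudin known from the kidney, fell 2.30-fold and 2.06-fold. PARD6B, a polarity gene, fell 1.64-fold in siCHD8 cells and 1.89-fold in siCt cells. CLDN15 rose 1.93-fold in siCHD8 cells and changed by 0.49 on the log2 scale in siCt cells (adjusted p = 0.0656). MARVELD3, the gene of an occludin relative, rose 1.65-fold in siCHD8 cells and 1.77-fold in siCt cells.
Of 16 catenins, nectins and adherens junction partners, 2 rose and 0 fell in siCHD8 cells (12.5% called, near the 11.5% of all probe sets), and 2 rose and 3 fell in siCt cells (31.2%, against 14.1%). AFDN, the gene of afadin, which ties nectins to actin, rose 1.70-fold in siCHD8 cells and 1.62-fold in siCt cells, and LIMA1, an actin-binding gene, rose 1.34-fold in siCHD8 cells. NECTIN1, ARHGAP35 and AJUBA fell 1.47-fold, 1.39-fold and 1.28-fold in siCt cells. Of 17 other cadherins, CDH7 and CDH19 fell in siCHD8 cells, by 0.54 and 0.49 on the log2 scale (11.8% called, near the 11.5% of all probe sets), and 0 passed in siCt cells, where 1 had an unadjusted p under 0.05.
Of 10 other desmosome and cornified plaque genes, 2 rose with each siRNA and 0 fell (20% called in each, against 11.5% in siCHD8 cells and 14.1% in siCt cells). PPL, the periplakin gene, rose 4.27-fold in siCHD8 cells and 3.71-fold in siCt cells, and PKP1, a plakophilin gene, rose 1.68-fold and 1.73-fold. Of 12 connexins, the gap junction genes, 2 rose in siCHD8 cells (16.7% called, against 11.5%) and 3 in siCt cells (25%, against 14.1%), and 0 fell. GJB2 rose 2.00-fold in siCHD8 cells and 3.04-fold in siCt cells, and GJB6 1.72-fold and 2.22-fold. GJC3 rose 1.37-fold in siCt cells.

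**Figure D4:**
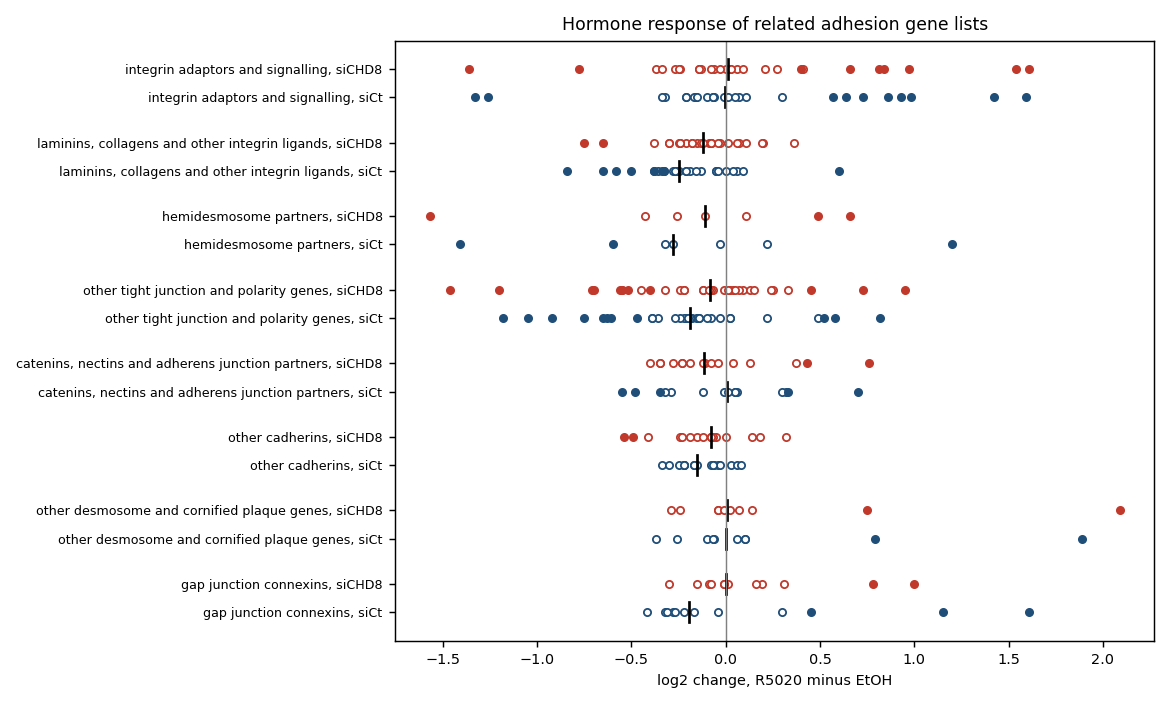
Log2 change with R5020 (R5020 minus EtOH) of each measured gene of 8 related lists, siCHD8 cells in red above siCt cells in blue, with filled points for an adjusted p under 0.05 and a black bar for the list's median. The list medians lie close to 0 (between -0.28 and 0.01), with single genes such as PPL (2.09 and 1.89), VCL (1.54 and 1.59) and DST (-1.57 and -1.41) far from them.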

How the data were processed

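RNA of 12 samples in 4 conditions was measured on Human Gene 1.0 ST arrays (Affymetrix). The authors deposited 1 log2 intensity for each probe set and array, computed by RMA, which subtracts background, equalises the distributions of the arrays and summarises the probes. The sources used here do not state how probe sets were defined or filtered. RMA compresses changes of dim probe sets, and levels of different probe sets cannot be compared. No further normalization was applied. Of 33297 probe sets, the platform annotation, used with RefSeq of GRCh38.p14 for names, gives 1 gene symbol for 19460, more than 1 for 1754 and none for 12083, and the 21214 with a symbol were tested. The symbols of all 36 members matched RefSeq, and no member shares all its values with another probe set.

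limma 3.58.1 (R 4.3.3) fitted a mean for each condition over all 12 arrays, with moderated variances, and p-values were adjusted by Benjamini and Hochberg's method across the tested probe sets. A change was called at an adjusted p under 0.05. The contrasts were R5020 against EtOH in siCHD8 and in siCt cells, siCHD8 against siCt with R5020 and with EtOH, and the difference between the hormone responses. The fit was tested on simulated data. The median standard error was 0.13 for the first 4 contrasts, and 3 arrays per condition limit the precision. Values of every array are given for members called in a hormone or knockdown contrast, and of each related list the 4 called genes (or fewer) with the largest change in each hormone contrast are named; CDH3, ITGAV and ITGA2 in the knockdown were named after their values were seen. The shared OCLN and PELO probe sets stand for no member. The members and lists were chosen with earlier results of these data known. Alternatives were 2 other scalings, 3 probe set filters, 2 variance models, fits on only the conditions compared, a replicate block, 2 thresholds, and leaving out arrays. Promoter windows came from RefSeq. Promoters and plots used pandas 2.3.3 and matplotlib 3.10.9 in Python 3.11.15.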

Additional observations from a re-analysis of the deposited data

How the results depend on the processing

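The 2 other thresholds were counted apart from the rest. Of the 22 member calls, 13 were kept in all remaining alternatives that could be run for them, 9 were lost in at least 1, and 0 reversed. The 9 were CDH1, CDH3 and JUP in siCHD8 cells and ITGA3, ITGB4, ITGB6, ITGB8, CLDN8 and JUP in siCt cells, and the cause was not tested. With a fold over 1.5 and an adjusted p under 0.01, 6 members were called for R5020 in siCHD8 cells and 5 in siCt cells, and with the same fold and an unadjusted p under 0.01, 6 and 7. CLDN3 in siCHD8 cells (-0.47) and TJP3 in siCt cells (-0.52) were among the 13 but did not meet the first of these limits. With single arrays left out, the counts ranged from 7 to 12 in siCHD8 cells and from 7 to 13 in siCt cells, with the 7 in siCt cells found without siCt R5020 array 3. For siCHD8 against siCt they ranged from 0 to 0 with R5020 and from 0 to 1 with EtOH, the 1 being ITGA2, higher without siCHD8 EtOH array 3, and for the difference between the responses from 0 to 0. With array weights, 1 member was called for siCHD8 against siCt with R5020, CDH3 (-0.42, adjusted p = 0.0174). Settings that kept all arrays added calls with R5020: in siCHD8 cells ITGA3 (dim probe sets left out, array weights, compared conditions alone), ITGB4 (these and trend with robust variance) and CLDN8 (array weights), and in siCt cells CDH3 (quantile normalization, dim probe sets left out, trend with robust variance), ITGA9 and CLDN4 (quantile normalization) and CDH2 (array weights). Without siCt EtOH array 3 and siCHD8 EtOH array 1 together, 9 members were called with R5020 in siCHD8 cells and 10 in siCt cells, and with each array centred on its median 7 and 12.

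Samples of the same number did not deviate together from their condition means more than others (correlations of -0.25 to 0.20 over 18 pairs, 4 of them over 0.1, against -0.23 to 0.25 for different numbers). No shared deviation by number was seen, which cannot show whether samples of the same number were handled together. With the replicate number as a block, 8 members were called with R5020 in siCHD8 cells, 12 in siCt cells and 0 in the other comparisons. Of the 36 members, 10 lie below the median level of all probe sets, where a change is harder to see.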
